A study of Homo sapiens with 9 samples.

Results

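The SRC family kinases *SRC*, *YES1*, *FYN* and *LYN* and the JAK-STAT genes *STAT3*, *JAK1*, *JAK2*, *IL6ST* and *SOCS3* were described in DU145 cells with and without knockdown of the Wnt receptor gene *FZD6*. These 9 genes were listed by symbol, with earlier results of these data known, out of 27860 genes for which transcript levels were available. All 9 were among the 12509 genes abundant enough to be tested. RNA-seq had been performed on 9 libraries of DU145, an established human prostate cancer cell line. Of these, 3 came from control cells expressing a scrambled shRNA (scramble), 3 from cells expressing *FZD6* shRNA1 and 3 from cells expressing *FZD6* shRNA2. All 9 libraries carry the genotype label WT, and the control cells, like the knockdown cells, expressed a hairpin from a lentiviral vector of the pLKO family. The labels call the 3 libraries of a group a triplicate without saying that they came from separate cultures, so that p-values measure the spread between these libraries, which may be technical. The study followed *SRC* and *STAT3* as proteins, and the RNA tables address whether the transcripts of these genes and their relatives differed after *FZD6* knockdown.

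SRC family kinases are membrane-anchored tyrosine kinases that relay signals from integrins and growth factor receptors, and they are held inactive by phosphorylation of a tyrosine in their tail. In the JAK-STAT pathway, cytokines of the IL-6 family bring together receptor chains that include *IL6ST*, also called gp130, whose bound JAK kinases phosphorylate the transcription factor *STAT3*. *STAT3* then enters the nucleus and switches on target genes, among them *SOCS3*, which binds gp130 and the JAKs and dampens the signal. *SRC* can phosphorylate *STAT3* too, and both are often active in prostate cancer cells, mainly through phosphorylation, which RNA-seq does not measure.

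The level of a gene is given in FPKM, a count of sequenced fragments scaled to transcript length and to library size, summed over its RefSeq transcripts, and differences are given as log2 fold changes of FPKM + 1. *FZD6* itself lay at 20.9, 20.5 and 20.04 FPKM in the scramble libraries, at 9.47, 10.2 and 9.80 FPKM with shRNA1 and at 7.84, 8.79 and 7.69 FPKM with shRNA2. Every knockdown library thus lay below every control library, and the log2 fold change was −1.12 in knockdown (6 libraries) against scramble (limma adjusted p = 0.00049). The estimated depth was 32.4 to 40.6 M fragments per library. The epithelial keratins *KRT8* and *KRT18* lay between 202 and 296 FPKM, whereas the leukocyte gene *PTPRC* was listed at 0 in all 9 libraries. *CD68*, a lysosomal gene used as a macrophage marker, lay at 16.9 to 18.1 FPKM in scramble, 21.3 to 23.0 FPKM with shRNA1 and 25.0 to 25.7 FPKM with shRNA2, without overlap, and its part in the results was not tested. Over all tested genes, the median absolute log2 distance of a library from the other 2 of its group was 0.0386 to 0.0688, except for shRNA2 replicate 2, where it was 0.0972. That library also held the highest level of its group for 7 of the 9 genes, and results that rest on it are given with and without it.

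**Figure D1:**
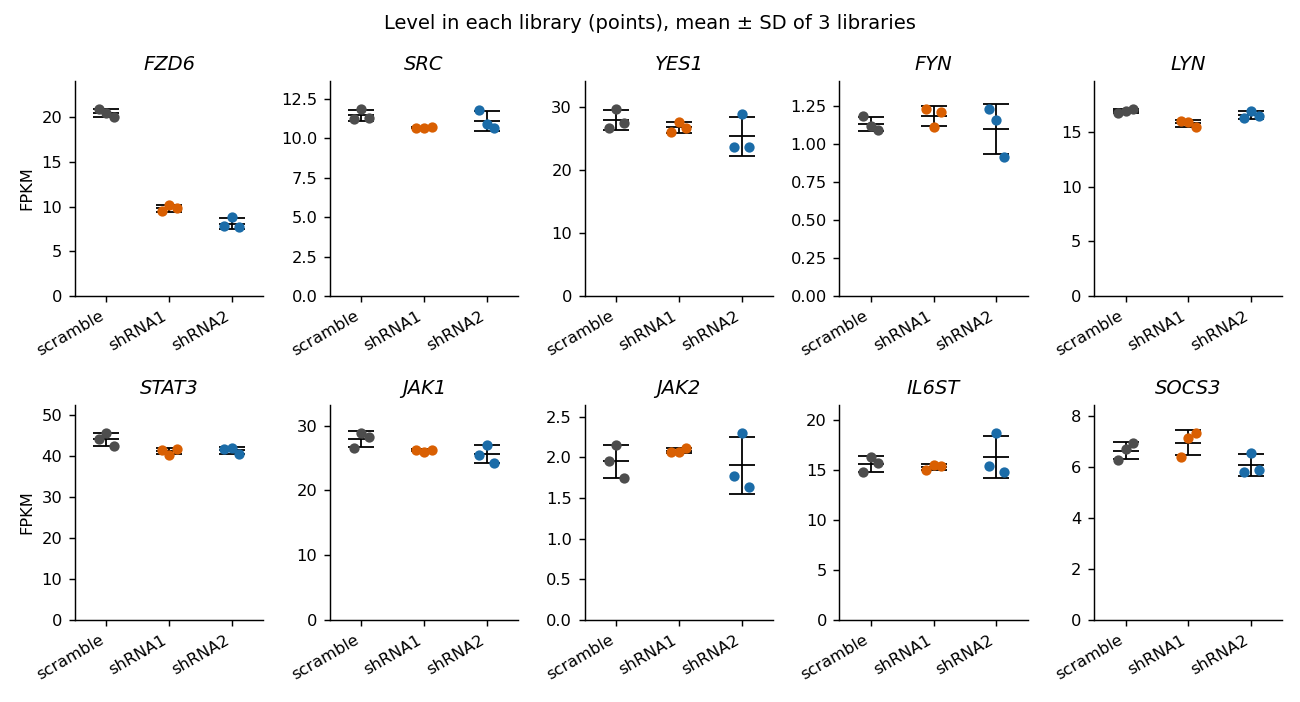
Level (FPKM, linear axis from 0) of *FZD6* and of the 9 SRC family and JAK-STAT genes in each library, with 3 libraries for scramble, shRNA1 and shRNA2; points are libraries and bars are mean ± SD. *FZD6* falls from about 20.5 to 9.83 and 8.11 FPKM, whereas the points of most other genes overlap between groups, and *STAT3* is the gene whose 6 knockdown points all lie below the 3 scramble points.

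The 9 genes differed widely in abundance in control cells. *STAT3* was the most abundant, with a mean of 44.1 FPKM, and stood above 84.5% of tested genes. *YES1* and *JAK1* followed at 27.9 and 27.9 FPKM, and their ranges overlapped, so that these neighbours could not be placed in order. *LYN* (16.9 FPKM), *IL6ST* (15.6 FPKM), *SRC* (11.5 FPKM) and *SOCS3* (6.63 FPKM) came next, each with a range apart from that of its neighbours. *JAK2* (1.95 FPKM) and *FYN* (1.13 FPKM) were near the lower limit of the test of 1 FPKM, above 11.9% and 3.01% of tested genes. The estimated fragments per kilobase of transcript were 34.9 to 45.1 for *FYN* and 57.6 to 84.0 for *JAK2*, against 1360 to 1760 for *STAT3*, so that the levels of *FYN* and *JAK2* are the least precise.

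In knockdown against scramble, none of the 9 genes passed the test (limma, adjusted p under 0.05), in a comparison in which 20.6% of all tested genes did. At an unadjusted p under 0.05, 2 genes passed, *STAT3* and *JAK1*, beside 35.4% of all tested genes. The log2 fold changes of the 9 genes ran from −0.10 to 0.02 with a median of −0.06, where the median of all tested genes was 0.03. The 95% intervals of the 9 genes together spanned folds of 0.836 to 1.14 (on FPKM + 1), so that changes beyond those limits were outside the interval of each gene. With shRNA1, 1 gene passed (*LYN*, lower), against 18.8% of tested genes in either direction and 7.19% lower. The groups did not overlap for 4 genes with shRNA1 (*SRC*, *LYN*, *STAT3* and *JAK1*, all lower, 17.9% of tested genes) and for 1 with shRNA2 (*STAT3*, lower, 16.6%). With shRNA2, none passed against 26.7% of tested genes, and 2 did at an unadjusted p under 0.05 (*STAT3* and *JAK1*, 39.9% of tested genes). The comparisons of shRNA1 and shRNA2 share the 3 scramble libraries and are given side by side.

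**Figure D2:**
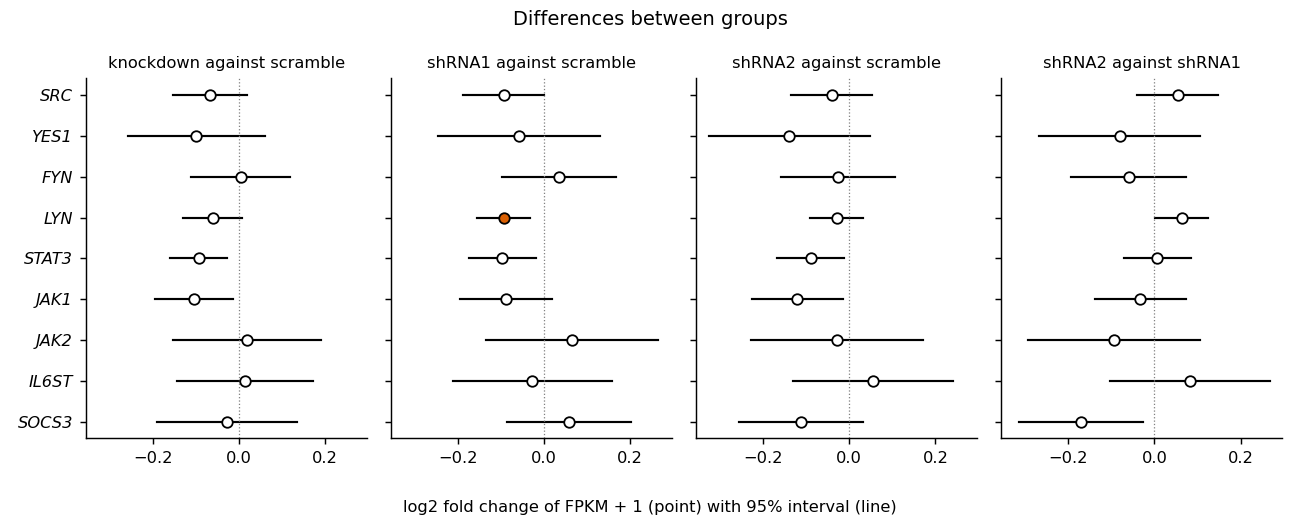
Log2 fold change of FPKM + 1 for the 9 genes in knockdown against scramble, each shRNA against scramble, and shRNA2 against shRNA1; points are estimates, lines are 95% intervals from limma, and a filled point marks an adjusted p under 0.05. The only filled point is *LYN* with shRNA1, at −0.09, and the intervals of *YES1*, *JAK2*, *IL6ST* and *SOCS3* are the widest.

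*SRC*, the founding member of the family (chromosome 20, 37344699 to 37406050, GRCh38.p14), was measured at 11.2, 11.9 and 11.3 FPKM in scramble. With shRNA1 it lay at 10.7, 10.6 and 10.7 FPKM, and with shRNA2 at 11.8, 10.9 and 10.7 FPKM. All shRNA1 libraries were thus below all controls, but shRNA2 replicate 1 reached the level of the highest control. Its log2 fold change was −0.07 in knockdown (95% interval −0.15 to 0.02, limma adjusted p = 0.243), −0.09 with shRNA1 (adjusted p = 0.144) and −0.04 with shRNA2 (adjusted p = 0.499). The interval for knockdown corresponds to a fold between 0.90 and 1.01. Without shRNA2 replicate 1, the *SRC* value was −0.09 in knockdown (limma adjusted p = 0.0513) and −0.08 with shRNA2, and without shRNA2 replicate 3 the latter was −0.012. Nearly all of the signal, 99.2%, was assigned to the transcript NM_198291.

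*YES1*, the close relative of *SRC* that is expressed in most epithelia (chromosome 18, 721588 to 812753), lay at 26.7, 29.7 and 27.4 FPKM in scramble, 26.0, 27.6 and 26.7 FPKM with shRNA1 and 23.6, 28.9 and 23.6 FPKM with shRNA2. The groups overlapped, and shRNA2 replicate 2 stood above the other 2 libraries of its group. The log2 fold change was −0.10 in knockdown (95% interval −0.26 to 0.06, limma adjusted p = 0.353) and −0.14 with shRNA2 (adjusted p = 0.239). Without shRNA2 replicate 2, the latter was −0.23 and passed the test (limma adjusted p = 0.0135). *YES1* has 1 RefSeq transcript, and the confidence bounds of the deposited values were 2.68% to 3.27% of its level, narrower than the spread within the shRNA2 group.

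*LYN*, best known from blood cells but also expressed in prostate cancer lines (chromosome 8), lay at 16.8, 16.9 and 17.1 FPKM in scramble, 16.0, 16.0 and 15.4 FPKM with shRNA1 and 16.3, 16.9 and 16.5 FPKM with shRNA2. All shRNA1 libraries were below all controls and also below all shRNA2 libraries, a separation between the hairpins that 11.8% of tested genes showed in that direction. *LYN* fell with shRNA1 by 0.09 on the log2 scale (95% interval −0.15 to −0.03, limma adjusted p = 0.0473), from a mean of 16.9 ± 0.176 to 15.8 ± 0.330 FPKM (SD, n = 3). With shRNA2 the log2 fold change was −0.03 (adjusted p = 0.455), and that between shRNA2 and shRNA1 was 0.06 (95% interval 0.0026 to 0.13, limma adjusted p = 0.206). The call with shRNA1 was lost when any library except shRNA2 replicate 2 was left out (adjusted p of 0.0533 to 0.147), and when the trend in transcript length was removed (adjusted p = 0.158). Of the *LYN* signal, 77.6% was assigned to NM_002350 and 22.4% to NM_001111097, the transcripts for the longer and the shorter form of the kinase.

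*FYN*, a kinase of T cells, neurons and several epithelia (chromosome 6, 111660332 to 111873452), was the least abundant of the 9 genes. It lay at 1.19, 1.12 and 1.09 FPKM in scramble, 1.23, 1.11 and 1.21 FPKM with shRNA1 and 1.23, 1.16 and 0.913 FPKM with shRNA2. The groups overlapped, and its log2 fold change in knockdown was 0.0046 (95% interval −0.11 to 0.12, limma adjusted p = 0.959). That value turned negative when libraries were centred on their median (−0.00065) or when the length trend was removed (−0.019).

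The 4 kinases kept similar proportions of their summed FPKM. In scramble, *YES1* made up 48.5% ± 1.10, *LYN* 29.5% ± 0.949, *SRC* 19.9% ± 0.114 and *FYN* 1.97% ± 0.131 of the family (SD, n = 3). Over all 9 libraries *SRC* ranged from 18.8% to 22.3% and *YES1* from 44.5% to 49.9%. The summed level of the family was 57.5 ± 1.89 FPKM in scramble, 54.5 ± 0.794 FPKM with shRNA1 and 54.3 ± 3.37 FPKM with shRNA2. The ranges of scramble and shRNA2 overlapped, while all shRNA1 sums (53.9 to 55.4 FPKM) lay below those of scramble (55.9 to 59.6 FPKM). Of single tested genes, 17.9% were lower with shRNA1 without overlap. Of the other family kinases, *LCK*, *FGR*, *BLK* and *FRK* did not exceed 0.0747 FPKM in any library, and none of these 4 could be tested.

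**Figure D3:**
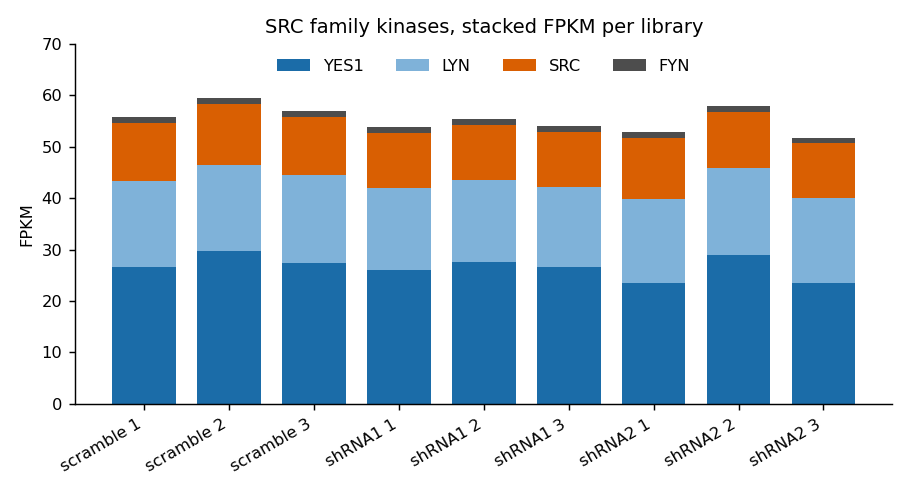
FPKM of *YES1*, *LYN*, *SRC* and *FYN* stacked for each of the 9 libraries (linear axis from 0). *YES1* forms the largest part in every library, and the summed height runs from 51.7 to 59.6 FPKM.

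*STAT3*, the transcription factor at the end of the pathway (chromosome 17, 42313324 to 42388442, minus strand), lay at 44.1, 45.7 and 42.5 FPKM in scramble. With shRNA1 it lay at 41.5, 40.3 and 41.7 FPKM, and with shRNA2 at 41.8, 41.9 and 40.4 FPKM. All 6 knockdown libraries were below all 3 controls, which held for *STAT3* alone among the 9 genes, where 9.46% of all tested genes were lower without overlap. The mean was 44.1 ± 1.60 FPKM in scramble (SD, n = 3) and 41.3 ± 0.734 FPKM in knockdown (SD, n = 6), 6.41% lower. The log2 fold change of −0.09 (95% interval −0.16 to −0.03) did not pass after adjustment (limma adjusted p = 0.0533). The values were close for the separate hairpins, −0.10 with shRNA1 (adjusted p = 0.0843) and −0.09 with shRNA2 (adjusted p = 0.0861), and the log2 difference between them was 0.0068 (95% interval −0.07 to 0.08). *STAT3* lies at the threshold of the test: 6 of 21 alternative settings, with adjusted p values of 0.0185 to 0.0488, moved it past the threshold, among them centring and leaving out scramble replicate 3 (0.0459) or shRNA2 replicate 2 (0.0445), and it stayed outside in the others, up to an adjusted p of 0.198 without scramble replicate 2.

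Among the transcripts of *STAT3*, NM_139276 held 51.0% of the signal, and its deposited start lies at position 42388495 of chromosome 17. The 197 bases before that start are shown because *STAT3* is the gene that lay closest to the threshold; they come from the RefSeq promoter window of GRCh38.p14 at chr17:42388496-42388692, minus strand, written 5′ to 3′. Capitals mark matches to CCAAT and GGGCGG on either strand, the letters of the CCAAT box and of the GC box bound by SP1.

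STAT3 promoter: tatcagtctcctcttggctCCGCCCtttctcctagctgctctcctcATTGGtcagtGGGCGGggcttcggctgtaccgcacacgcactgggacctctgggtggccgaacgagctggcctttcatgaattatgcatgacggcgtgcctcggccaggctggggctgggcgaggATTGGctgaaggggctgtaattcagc

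This stretch held 2 CCAAT and 2 GGGCGG matches. Of all 35116 promoter windows, each running from 250 bases before to 50 bases after a start, 34.6% held CCAAT and 45.0% held GGGCGG. Windows were found for 7 of the 9 genes, 16 windows in all, of which 3 held CCAAT (in *FYN*, *IL6ST* and *STAT3*) and 7 held GGGCGG (in *FYN*, *IL6ST*, *JAK1*, *JAK2*, *STAT3* and *YES1*). The STAT binding motif TTCNNNGAA, whose letters read the same on both strands, was in none of these 16 windows and in 7.66% of all windows. The genes without a window are among *SRC*, *LYN* and *SOCS3*, so that the absence of the motif cannot be read for all 9 genes.

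*JAK1*, the kinase on which gp130 signalling mainly depends (chromosome 1, 64833229 to 65067746), lay at 26.5, 28.9 and 28.2 FPKM in scramble. It lay at 26.2, 26.0 and 26.3 FPKM with shRNA1 and at 25.4, 27.0 and 24.2 FPKM with shRNA2. The shRNA1 libraries were below all controls, while shRNA2 replicate 2 overlapped with them. The log2 fold change was −0.10 in knockdown (95% interval −0.19 to −0.01, limma adjusted p = 0.0962), −0.09 with shRNA1 (adjusted p = 0.216) and −0.12 with shRNA2 (adjusted p = 0.0896). Without shRNA2 replicate 2, *JAK1* passed in shRNA2 against scramble, at −0.16 (limma adjusted p = 0.0253). *JAK2*, the partner kinase of erythropoietin and growth hormone receptors and a minor partner of gp130 (chromosome 9, 4984390 to 5129948), was far scarcer. It lay at 1.96, 2.15 and 1.74 FPKM in scramble, 2.07, 2.07 and 2.12 FPKM with shRNA1 and 1.77, 2.30 and 1.63 FPKM with shRNA2. The *JAK2* groups overlapped, with a log2 fold change of 0.02 in knockdown (95% interval −0.15 to 0.19, limma adjusted p = 0.885) that was −0.03 at the lowest when single libraries were left out.

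*IL6ST*, the signalling chain gp130 (chromosome 5, 55935095 to 55994963), lay at 14.8, 16.3 and 15.7 FPKM in scramble, 14.9, 15.5 and 15.3 FPKM with shRNA1 and 15.4, 18.7 and 14.8 FPKM with shRNA2. The groups overlapped, and shRNA2 replicate 2 was the highest library. The log2 fold change in knockdown was 0.01 (95% interval −0.14 to 0.17, limma adjusted p = 0.904), and −0.03 without shRNA2 replicate 2 (adjusted p = 0.509). *IL6ST* has the longest transcript of the 9 genes, at 9057 bases, and its log2 fold change was 0.11 once the length trend was removed (limma adjusted p = 0.142). *SOCS3*, the feedback inhibitor (chromosome 17, 78356778 to 78360925), has the shortest, at 2734 bases. It lay at 6.28, 6.70 and 6.93 FPKM in scramble, 6.38, 7.14 and 7.34 FPKM with shRNA1 and 5.79, 6.55 and 5.87 FPKM with shRNA2. The *SOCS3* groups overlapped, with a log2 fold change of −0.03 in knockdown (95% interval −0.19 to 0.14, limma adjusted p = 0.818). *SOCS3* had the widest gap between the hairpins, −0.17 in shRNA2 against shRNA1 (95% interval −0.31 to −0.03, limma adjusted p = 0.157), where none of the 9 genes passed and 6.71% of tested genes did. At an unadjusted p under 0.05, *SOCS3* and *LYN* passed in that comparison, beside 22.4% of tested genes. The deposited bounds were 7.04% to 8.78% of the *SOCS3* level, from an estimated 519 to 807 fragments.

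Across the genome, longer transcripts tended to be lower in knockdown, with a Spearman correlation of −0.41 between transcript length and log2 fold change over the tested genes with a length, which are not independent replicates and share the same libraries. The longest transcripts of the 9 genes run from 2734 to 9057 bases, and the median of tested genes is 3420 bases. Removing the trend left none of the 9 genes past the test in knockdown, moved *LYN* from −0.06 to −0.03, *STAT3* from −0.09 to −0.08, *IL6ST* from 0.01 to 0.11 and *SOCS3* from −0.03 to −0.08, and the part of length in these differences was not tested further.

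At the level of single RefSeq transcripts, the 9 genes had 46 entries in the tables, of which 19 held at least 10% of the FPKM of their gene. Besides the single-transcript genes *YES1* and *SOCS3*, *JAK1* was divided between NM_001321856 (62.1%) and NM_002227 (33.3%). *JAK2* was divided among NM_001322204 (56.5%), which starts inside the gene at position 5041693 of chromosome 9, NM_004972 (16.7%) and NM_001322194 (11.5%). *IL6ST* was divided among NM_001364276 (41.8%), NM_001364278 (29.6%) and NM_002184 (19.7%). *FYN* was divided among NM_002037 (46.6%), NM_153047 (27.2%) and NM_001370529 (20.8%), none of which reached 1 FPKM. The shares varied widely between libraries of a group, for example from 0.0121% to 40.6% for NM_002184 of *IL6ST* over the 9 libraries. Of 18 entries abundant enough to be tested, none passed in any comparison (limma, lowest adjusted p = 0.210), where 2.02% of all entries did in knockdown and 0.505%, 3.43% and 0.51% in shRNA1, shRNA2 and between the hairpins. At an unadjusted p under 0.05 there were 0 entries in knockdown and with shRNA2, 1 with shRNA1 (NM_001364276 of *IL6ST*) and 2 between the hairpins (the same entry and NM_003955 of *SOCS3*). The largest *STAT3* transcript, NM_139276, had a log2 fold change of −0.28 in knockdown (unadjusted p = 0.0604, limma adjusted p = 0.295), while NM_001369513 had 0.34 (adjusted p = 0.579).

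**Figure D4:**
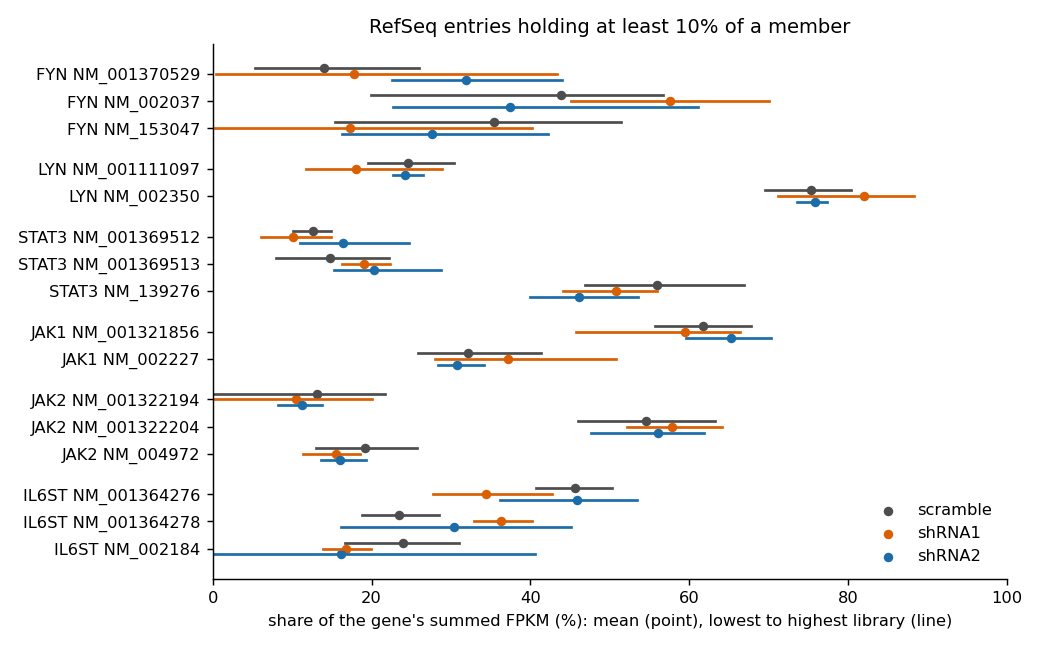
Share of the summed FPKM of *FYN*, *LYN*, *STAT3*, *JAK1*, *JAK2* and *IL6ST* (percent, linear axis) assigned to each RefSeq transcript that held at least 10%, in scramble, shRNA1 and shRNA2; points are means of 3 libraries and lines run from the lowest to the highest library. The lines of the groups overlap for nearly every transcript, and *LYN* NM_002350 has the highest shares, 69.6% to 88.3%.

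The genes whose pattern was most like that of *SRC* were found by the root mean square distance of log2 values, as differences from their own scramble mean, over the 9 libraries. Among 8607 genes of at least 5 FPKM, *PHLDB1* (0.0251), *ARHGAP45* (0.0280) and *NUP188* (0.0291) lay nearest to *SRC*, where the median distance was 0.137. For *STAT3*, the nearest were *TMEM127* (0.0193), *KDM5C* (0.0213) and *TAOK2* (0.0217), where the median was 0.145. Their log2 fold changes in knockdown were −0.07, −0.05 and −0.07 for the first set and −0.09, −0.09 and −0.10 for the second. That these lie near the values of *SRC* and *STAT3* follows from picking genes by distance over the same 9 libraries.

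Genes around the SRC kinases were read from lists drawn up with earlier results of these data known. Of 13 regulators, 9 were tested and 2 passed in knockdown, both lower, where 7.1% of all tested genes were lower. *PTPN1*, the phosphatase PTP1B, which can release *SRC* from its inactive state and also acts on *JAK2*, lay at 54.2, 55.1 and 53.0 FPKM in scramble, 48.1, 48.3 and 48.2 FPKM with shRNA1 and 45.1, 43.1 and 44.3 FPKM with shRNA2. It fell by 0.23 (log2, limma adjusted p = 0.0102), without overlap between any of the groups. *PTPRJ*, a receptor phosphatase with *SRC* among its substrates, fell by 0.21 (adjusted p = 0.0109), from 5.95, 6.31 and 6.21 FPKM to between 4.72 and 5.53 FPKM. *CSK*, the kinase that phosphorylates the inhibitory tail tyrosine of SRC kinases, had a log2 fold change of −0.08 (adjusted p = 0.143), but passed as lower with the length trend removed (−0.13, limma adjusted p = 0.0349) and in shRNA2 against scramble. The count of 2 was 0 without scramble replicate 2 and 5 without shRNA2 replicate 2, fits whose shares of all tested genes are not given.

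Of 20 *SRC* substrates and adaptors, 16 were tested, of which 9 passed in knockdown, all as lower, where 7.1% of all tested genes were lower. The median over the 16 was −0.22 on the log2 scale. Among the 9, the 4 with the largest changes were *TNS3*, *TLN1*, *AFAP1* and *ARHGAP35*. *TLN1*, or talin, which links integrins to actin, lay at 143, 148 and 139 FPKM in scramble, 106, 107 and 106 FPKM with shRNA1 and 106, 111 and 101 FPKM with shRNA2, a fall of 0.43 (limma adjusted p = 0.00049). *TNS3*, an adhesion adaptor, fell by 0.45 (adjusted p = 0.0028), *AFAP1*, an actin-binding adaptor that *SRC* binds, by 0.39 (adjusted p = 0.00179), and *ARHGAP35*, a GTPase-activating protein phosphorylated by *SRC*, by 0.26 (adjusted p = 0.0194). Each of these 4, picked for the largest changes, lay lower in all 6 knockdown libraries than in all 3 controls, as did 9.46% of all tested genes. The *ARHGAP35* call alone of the 4 was lost when a scramble library was left out (limma adjusted p up to 0.0868). *PTK2*, the focal adhesion kinase, and *BCAR1*, the adaptor p130Cas, did not pass (−0.01 and 0.08, adjusted p = 0.836 and 0.111). The list has a median transcript length of 5731.5 bases, longer than the 3420 of tested genes. With the length trend removed 9 passed as lower, and without scramble replicate 2 there were 5. The shares of all tested genes in these 2 fits are not given, and the part of length was not tested.

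The other JAKs and STATs, 8 of 8 tested, had none past the test in knockdown (limma), and 1, *TYK2*, had an unadjusted p under 0.05. At single hairpins, *STAT4* was higher and *TYK2* lower with shRNA2 (11.4% of tested genes were lower and 15.3% higher), and neither passed with shRNA1.

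Among the 9 ligands of the IL-6 family, 3 were abundant enough to be tested and 2 rose, where 13.5% of all tested genes were higher. *IL11*, which signals through gp130, lay at 11.5, 10.5 and 10.7 FPKM in scramble, 15.1, 15.8 and 15.3 FPKM with shRNA1 and 19.1, 18.4 and 19.5 FPKM with shRNA2. It rose by 0.61 on the log2 scale (95% interval 0.40 to 0.81, limma adjusted p = 0.00434), with no overlap between any groups. *LIF*, another gp130 ligand, rose by 0.23 (adjusted p = 0.0103), from 6.70, 6.70 and 6.92 FPKM to between 7.49 and 8.85 FPKM. Both calls held when each library was left out in turn. *IL6* itself lay at 0.602 to 1.25 FPKM over the 9 libraries, under the limit of 1 FPKM on average, and *OSM* at 0 to 0.00979 FPKM.

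Of 20 cytokine receptors, 13 were tested, of which 1 passed as higher and 1 as lower (13.5% and 7.1% of all tested genes). *OSMR*, the receptor chain that pairs with gp130 for oncostatin M, was the most abundant, at 85.9, 90.7 and 85.3 FPKM in scramble, 77.5, 77.7 and 75.3 FPKM with shRNA1 and 76.9, 83.2 and 73.7 FPKM with shRNA2. It fell by 0.17 (limma adjusted p = 0.0196), without overlap, and the call was lost without scramble replicate 1 or 2 (adjusted p up to 0.0878). *IFNGR1*, a chain of the interferon gamma receptor, rose by 0.20 (adjusted p = 0.028), but its groups overlapped and it did not pass with the length trend removed (adjusted p = 0.0942). Its call was also lost without scramble replicate 1 or 2, shRNA1 replicate 1 or 3 or shRNA2 replicate 3. *IL6R* and *LIFR*, the receptors for IL-6 and *LIF*, did not pass, at 5.75 and 5.76 FPKM in scramble with log2 fold changes of 0.04 and −0.12.

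Of 16 further inhibitors of the pathway, 13 were tested, of which 1 passed as higher and 1 as lower (13.5% and 7.1% of all tested genes). *PTPN2*, the phosphatase that removes phosphate from *JAK1* and *STAT3*, rose by 0.16 (limma adjusted p = 0.0397), and *SOCS7* fell by 0.16 (adjusted p = 0.0376). Neither passed with the length trend removed (adjusted p = 0.0758 and 0.0894), and the *SOCS7* call was lost when any library except shRNA2 replicate 2 was left out. The *PTPN2* call was kept only without shRNA2 replicate 1 or 3 among the 9 fits that left out a library (adjusted p up to 0.148). *SOCS1*, the relative of *SOCS3* that answers to interferons, lay at 0.858 FPKM in scramble and was not tested.

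Known *STAT3* target genes moved in both directions. Of 36 listed, 28 were tested, and 9 passed as higher and 3 as lower, where 13.5% and 7.1% of all tested genes did. The median over the 28 was 0.06 on the log2 scale. *CXCL8*, the chemokine interleukin-8, rose by 0.67 (limma adjusted p = 0.00371), from 7.23, 6.44 and 8.39 FPKM in scramble to between 10.3 and 13.9 FPKM in knockdown. *CD274*, which encodes PD-L1, rose by 0.46 (adjusted p = 0.0477), from 2.14, 2.98 and 3.31 FPKM to between 3.55 and 5.67 FPKM. *IER3*, a stress response gene, rose by 0.37 (adjusted p = 0.00229), and *MUC1*, an epithelial mucin, fell by 0.42 (adjusted p = 0.0076). In these 4, picked for the largest changes, no knockdown library overlapped with the controls. Of all tested genes, 9.46% were lower without overlap, and the share that were higher without overlap is not given here. *CXCL8* and *IER3* are also known targets of NF-kappa-B. The calls of *CXCL8*, *IER3* and *MUC1* held when each library was left out in turn, whereas that of *CD274* was kept only without shRNA2 replicate 2 (adjusted p up to 0.18 without another library). *CD274* did not pass with the length trend removed (limma adjusted p = 0.0666) or with shRNA1 alone (adjusted p = 0.144). The count of higher genes was 2 without any 1 of the 3 scramble libraries. It was 4 or 5 without shRNA1 replicate 1, 2 or 3 or shRNA2 replicate 3, and that of lower genes was 1 without scramble replicate 1 or 2. With the length trend removed, 4 were higher and 4 lower. The 28 tested targets have a median transcript length of 2630 bases, shorter than the 3420 of tested genes. The shares of all tested genes in these other fits are not given, so that the drop cannot be called particular to *STAT3* targets.

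The motif TTCNNNGAA was present in the promoter windows of 5 of the 24 *STAT3* targets that have one, *BCL6*, *CD274*, *ICAM1*, *IRF1* and *LRG1*, of which *LRG1* was not tested. Counted by window, it was in 5 of the 32 windows of these targets and in 7.66% of all windows, a difference that was not tested. For each of the 4 tested genes, the match farthest before the start is shown to give the letters of the site (*BCL6* has 4 matches in its window, the others 1 each); the motif is in capitals, with 10 bases to each side, 5′ to 3′ on the strand of the gene (RefSeq, GRCh38.p14).

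*BCL6*, chr3:187745478-187745506, minus strand, 24 bases before the start: gaagctcaaaTTCCGAGAAttgagctctg
*CD274*, chr9:5450407-5450435, plus strand, 121 bases before the start: ttccgccgatTTCACCGAAggtcaggaaa
*ICAM1*, chr19:10271035-10271063, plus strand, 71 bases before the start: ggcgcgaggtTTCCGGGAAagcagcaccg
*IRF1*, chr5:132490879-132490907, minus strand, 120 bases before the start: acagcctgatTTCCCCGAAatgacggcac

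These 4 genes, named for the motif and not for their change, did not share a direction. *CD274* rose as given above, *BCL6*, a transcriptional repressor, fell by 0.11 (limma adjusted p = 0.0229, up to 0.0888 without 1 of the scramble libraries), and *ICAM1* and *IRF1* did not pass (log2 fold changes of −0.05 and 0.06, adjusted p = 0.433 and 0.498). A match describes letters in a window and does not show that *STAT3* binds there.

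**Figure D5:**
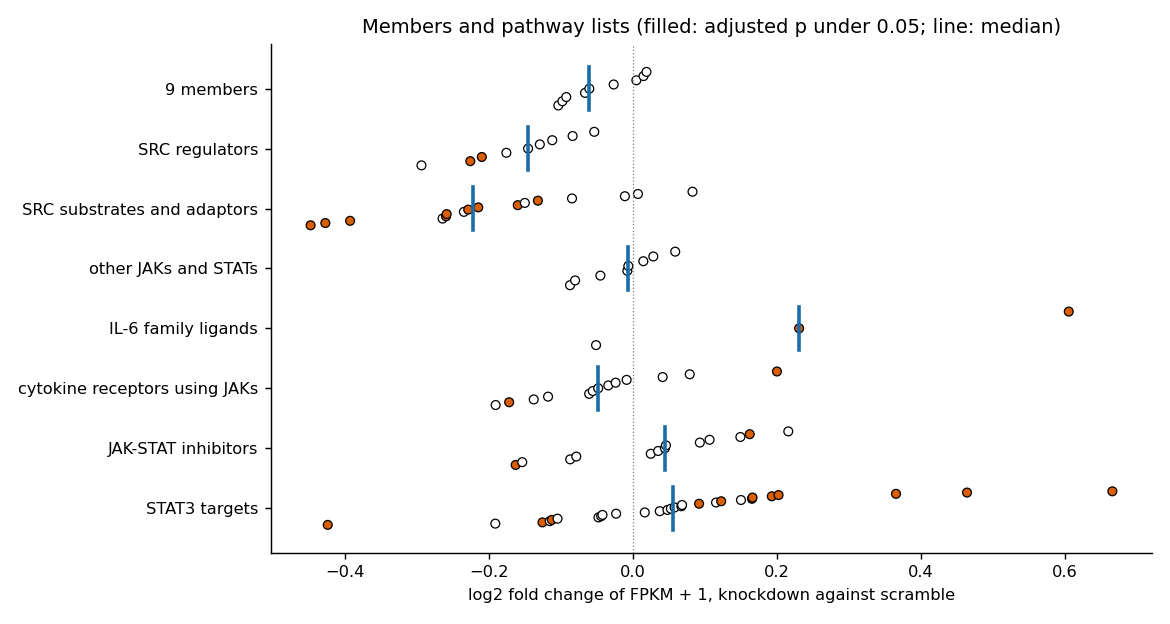
Log2 fold change of FPKM + 1 in knockdown against scramble for the 9 SRC family and JAK-STAT genes and for the tested genes of each pathway list; circles are genes, filled where the limma adjusted p was under 0.05, and blue lines are medians. The 9 genes lie between −0.10 and 0.02 with no filled circle, the *SRC* substrates have a median of −0.22 with 9 filled circles, and the targets of *STAT3* have filled circles on both sides of 0.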

How the data were processed

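RNA-seq was performed on 9 DU145 libraries, 3 each of scramble, shRNA1 and shRNA2, grouped by their labels. The authors prepared stranded mRNA libraries, used STAR for mapping and Cufflinks for FPKM, and the deposited tables give FPKM with lower and upper confidence bounds per RefSeq transcript. The labels name hg38, which the loci follow, although the methods name mm10. Versions of STAR and Cufflinks are not given in the sources used here.

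Accessions were matched to genes through RefSeq (GRCh38.p14; 72645 of 73240 matched), and the FPKM of all entries of a gene were added, leaving out 42 genes with an entry not marked usable. This gave 27860 genes, and a gene was tested when its mean over the 9 libraries was at least 1 FPKM (12509 genes). Values were transformed as log2(FPKM + 1), which understates changes of scarce genes. Knockdown was compared with scramble as 2 groups, and the single hairpins in a model of 3 groups, with limma 3.58.1 in R 4.3.3 and Benjamini-Hochberg adjustment over all tested genes at 0.05. A 95% interval is that of limma. A count model was not used, since FPKM are not counts. Fragments were estimated from the bounds of single-transcript genes, taking them as 2 SD of a counting error, and cover counting error only.

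The genes and lists were chosen with earlier results of these data known, and the list counts are therefore descriptions. Counts from settings other than the main one are given without the share of all tested genes in the same fit. Named genes are all 9 members with *FZD6*, called genes of a list where 6 or fewer were called and otherwise the 4 with the largest change, the 3 genes nearest in pattern to *SRC* and to *STAT3*, and RefSeq entries with at least 10% of a gene. *CSK*, *PTK2*, *BCAR1*, *IL6*, *OSM*, *IL6R*, *LIFR* and *SOCS1* were named for their roles, and *BCL6*, *ICAM1*, *IRF1* and *LRG1* for a promoter motif, after their values were seen. Lengths are the longest GENCODE transcript per symbol (11742 tested genes, 93.9%), and the length trend was estimated in each library with lowess (span 0.3). Other settings were a pseudocount of 0.1 or 0.01, a minimum of 5 FPKM or none, libraries centred on their median, quantile normalization, the length trend removed, the replicate number as a block, primary chromosomes only, protein-coding accessions only, a variance trend, the 6 libraries compared only, and leaving out each library. Testing RefSeq entries one by one was added after seeing the data. The scripts were tested on simulated data. Python 3.11.15, pandas 2.3.3, numpy 2.4.6, scipy 1.17.1 and matplotlib 3.10.9 were used. Protein arrays, western blots and the kinome screen of the study were not analysed here, and some genes of the lists are not reported here.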

Additional observations from a re-analysis of the deposited data

Results flagged for a closer look

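Among 10 measures (the 9 genes and the summed SRC family) tested in the 6 knockdown libraries for a single library far from the rest, 3 were marked. Chance marks about 1 in 20 groups where all libraries come from a single population. Here 2 hairpins were pooled, and shRNA2 libraries lay farther from their group (0.0618 to 0.0972) than shRNA1 libraries (0.0386 to 0.0402). The share of all tested genes marked is not given, so the 3 marks cannot be read as an excess. *SRC* in shRNA2 replicate 1 (11.8 FPKM) was above the other 5 knockdown libraries, by a gap of 0.789 of the whole range. *IL6ST* in shRNA2 replicate 2 (18.7 FPKM) was above the others by 0.825 of the range, and this library was the farthest from its group over all genes. *FYN* in shRNA2 replicate 3 (0.913 FPKM) was below the others by 0.627 of the range, close to the critical value of 0.625.

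The hairpins differed in 3 of the 26 genes read for it, by limma in shRNA2 against shRNA1, where 6.71% of all tested genes did. Among these 3 is *FZD6*, the target of both hairpins, so that the count cannot be read as an excess over that share. *FZD6* was lower with shRNA2 by a log2 difference of −0.25 (adjusted p = 0.0273), and *PTPN1* by −0.12 (limma adjusted p = 0.0359). *IL11* was higher with shRNA2 by 0.29 (limma adjusted p = 0.00772). The *FZD6* call was kept in 14 of 22 alternatives, with a value as small as −0.17 and an adjusted p of up to 0.206, and was lost without scramble replicate 2, any 1 of the shRNA1 libraries, or shRNA2 replicate 1 or 3. When single libraries were left out, the *PTPN1* call was kept only without shRNA2 replicate 2 (limma adjusted p up to 0.115 otherwise), and that of *IL11* in all 9 fits. *PTPN1* and *IL11* therefore moved away from scramble in the same order as *FZD6* across the 2 hairpins, a description over 3 groups that was not tested. Among the other genes read, which were not called between the hairpins, some had this order, such as *TNS3*. Others, such as *PTPN2* and *LIF*, changed less with shRNA2 than with shRNA1.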

How the results depend on the processing

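No member passed in knockdown, but *STAT3* passed, giving a count of 1, with no filter, a filter of 5 FPKM, centring or quantile normalization, and the count was 0 to 1 when single libraries were left out. With shRNA1 the count of 1 (*LYN*) was 0 with the length trend removed, with or without the block, with protein-coding accessions only and with a variance trend and robust prior, and 2 with quantile normalization (*LYN* and *STAT3*) or only the 6 libraries compared (*LYN* and *SRC*); it was 0 to 1 when libraries were left out. With shRNA2 the count of 0 was 1 with quantile normalization (*STAT3*) and 0 to 2 when libraries were left out. Between the hairpins it was 0 throughout. The causes were not tested.

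Directions turned for small values. *FYN* in knockdown was −0.00065 with centring and −0.019 with the length trend removed, with or without the block; with the length trend removed, *IL6ST* with shRNA1 was 0.074 and *LYN* with shRNA2 was 0.0058, both also with the block. When single libraries were left out, knockdown values ran from −0.0090 to 0.037 for *FYN*, −0.033 to 0.068 for *JAK2*, −0.033 to 0.045 for *IL6ST* and −0.061 to 0.0015 for *SOCS3*. With shRNA2 they ran from −0.070 to 0.040 for *FYN*, −0.12 to 0.039 for *JAK2* and −0.041 to 0.12 for *IL6ST*, and with shRNA1 from −0.062 to 0.0036 for *IL6ST*. Between the hairpins they ran from −0.0086 to 0.023 for *STAT3*, −0.10 to 0.0061 for *FYN*, −0.072 to 0.0042 for *JAK1* and −0.014 to 0.14 for *IL6ST*. *FYN* and *JAK2* have no value under the filter of 5 FPKM.

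Correlations of the deviations of same-numbered libraries from their group means were −0.0710 to 0.111, and 5 of 9 libraries correlated best with their own number. How many would do so by chance was not tested, so these values do not settle whether the numbers mark pairs. With the replicate block, 0 members passed with shRNA1 (*LYN* adjusted p = 0.0650) and 0 in knockdown (*STAT3* adjusted p = 0.0737). With shRNA2 the block lowered the limma adjusted p of *YES1* from 0.239 to 0.0904 and of *SOCS3* from 0.219 to 0.107. It raised that of *STAT3* from 0.0861 to 0.102. The 95% intervals of the members in knockdown lay between 0.836-fold and 1.14-fold on FPKM + 1, a scale that understates the folds of scarce genes. Whether depth or the 3 libraries a group set the width of these intervals was not tested.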
